A study of Homo sapiens with 6 samples.

Results

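The genes described here encode the proteasome, its activators and its assembly factors. The list held 42 genes, chosen by name and complex and not by their values. Each was read through 1 probe set: of those annotated to no other gene, the brightest on average across the arrays. By that rule 37 of the 42 were measured, of 19775 genes in all. PSMA6, PSMC5, PSMD7, PSMD13 and PSME2 were not analysed here, since no probe set named them alone. Expression was measured on Affymetrix Human Genome U133 Plus arrays in DLD1, an established colorectal adenocarcinoma line. One group of 3 cultures received vehicle (DMSO) and the other 3 received 10 µM SAH-BCL9B, a hydrocarbon-stapled peptide modelled on the helix of BCL9 that binds beta-catenin, both for 12 h. No group received a control peptide, and all values come from 1 cell line. Whether the 3 cultures of a group were separate experiments is not given in the sources used here, so each p-value measures the spread between these arrays.

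The proteasome degrades proteins tagged with ubiquitin. Its 20S core is a barrel of alpha and beta rings, and the beta subunits cut the substrate. The 19S particle caps the barrel, binds ubiquitin, removes it and unfolds the substrate with a ring of ATPases. Interferon-induced catalytic subunits can replace the constitutive ones to form the immunoproteasome, which supplies peptides for class I antigen presentation. When proteasome activity is short, the transcription factor NFE2L1 is known to raise core, cap and assembly genes together. In colorectal cancer cells the proteasome also degrades beta-catenin once the APC destruction complex has marked it.

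Proteasome transcripts differed little between the groups. POMP, the maturation factor of the 20S core, rose 1.25-fold, and it was the 1 gene of 37 that passed limma's test at an adjusted p of 0.05, or 2.70%. Over all 19775 genes 6.93% passed, 3.49% upward and 3.43% downward, so the share among proteasome genes was no higher than over the array. None of the 37 fell. All 14 measured subunits of the 19S cap had a positive difference, with a median of 0.14 on the log2 scale, against a median of 0.02 and 55.1% positive over all genes. Of 13 measured constitutive 20S subunits 10 were positive, with a median of 0.06, while 2 of the 3 immunoproteasome subunits were negative, with a median of -0.09. Over the 37 genes the median was 0.09 and 29 differences were positive.

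The data also bound the size of these differences. The 95% interval of limma, taken gene by gene and not adjusted over the list, lay within 0.5 of 0 on the log2 scale for all 37 genes. The widest upper bound was 0.50 for PSMD1, a 1.41-fold rise, and the lowest lower bound was -0.38 for PSMB8, a 1.30-fold fall. The interval held 0 for 30 genes and lay above 0 for 7, namely POMP, PSMC4, PSMD1, PSMD2, PSMD3, PSMD11 and PSME4. An interval that leaves out 0 is the same as an unadjusted p under 0.05. That held for 18.9% of the 37 genes and for 21.4% of all genes, in either direction, so the share was no higher than over the array. These bounds hold for the probe set used, on values that were normalized between arrays. In RNA from a whole culture, a shift in every cell and a larger one in a share of the cells cannot be told apart.

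**Figure D1:**
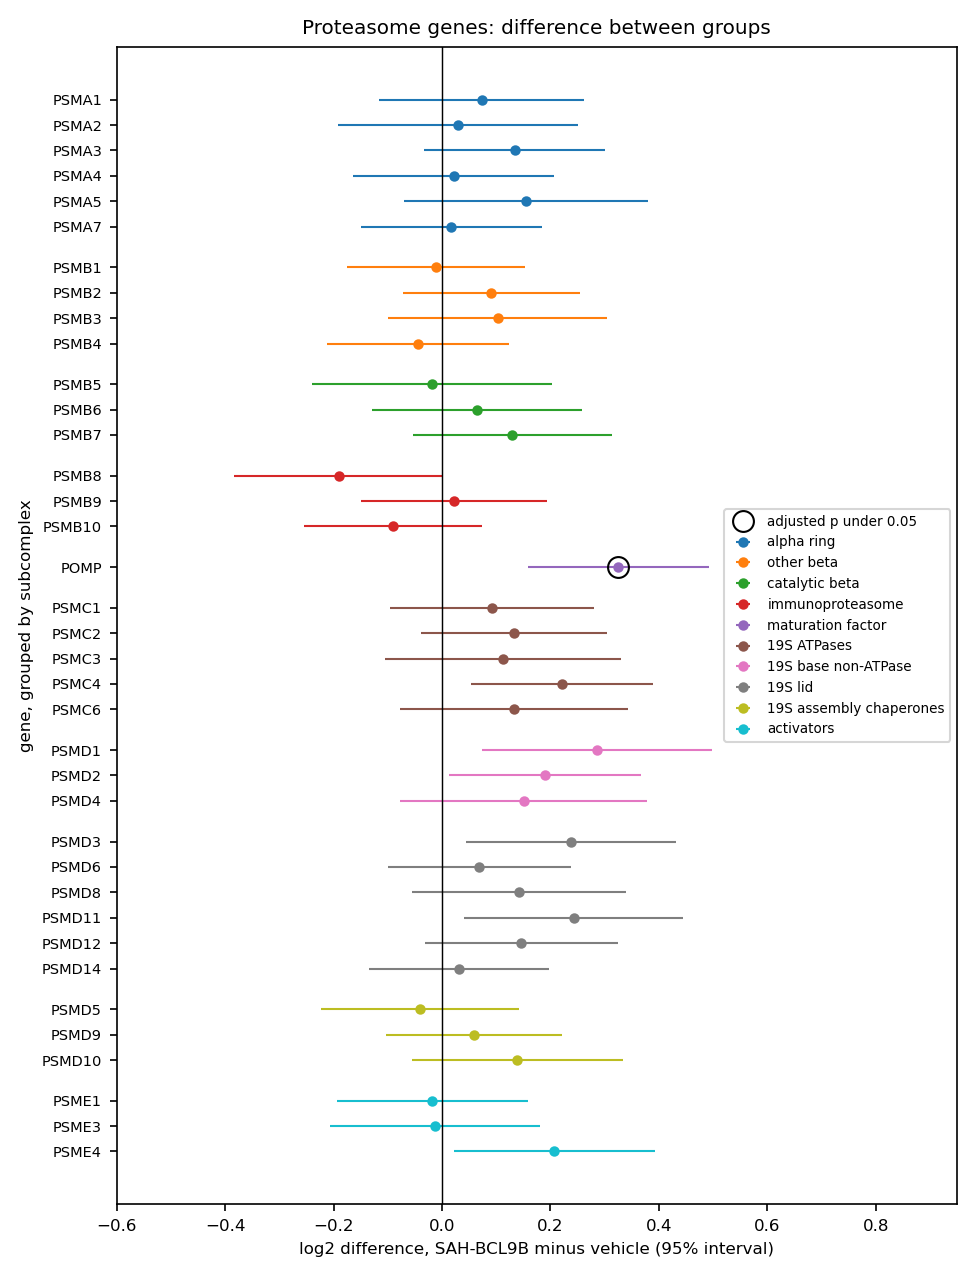
Log2 difference (SAH-BCL9B minus vehicle) of 37 proteasome genes with 95% intervals, grouped and coloured by subcomplex, from 3 arrays per group. POMP, circled, is the 1 gene past the threshold. All 14 points of the 19S ATPases, base and lid lie right of 0, and PSMB8 is the lowest at -0.19.

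The maturation factor gave the clearest separation. POMP encodes the chaperone that docks on the unfinished core and is degraded as its first substrate when the core closes. Its log2 level was 13.41, 13.36 and 13.41 in vehicle 1, 2 and 3, and 13.69, 13.78 and 13.69 in SAH-BCL9B 1, 2 and 3. The groups did not overlap, and the highest vehicle array lay well under the lowest SAH-BCL9B array. Its vehicle mean was 13.39 ± 0.03 and its SAH-BCL9B mean 13.72 ± 0.05 (SD, n = 3), a difference of 0.33 ± 0.07 (SE, limma adjusted p = 0.037). A dimmer probe set of POMP gave a difference of 0.30 but was not called when every probe set was tested by itself (adjusted p = 0.55). The call for POMP was lost whichever array was left out (adjusted p = 0.0594 to 0.143), with the difference between 0.29 and 0.34 throughout. The promoter window of POMP in RefSeq, chr13:28658880-28659179 (+ strand), build GRCh38.p14, runs from 250 bases before the transcription start to 50 after it. It is shown because POMP was the gene called, and it held none of the 4 motifs searched in these windows.

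POMP: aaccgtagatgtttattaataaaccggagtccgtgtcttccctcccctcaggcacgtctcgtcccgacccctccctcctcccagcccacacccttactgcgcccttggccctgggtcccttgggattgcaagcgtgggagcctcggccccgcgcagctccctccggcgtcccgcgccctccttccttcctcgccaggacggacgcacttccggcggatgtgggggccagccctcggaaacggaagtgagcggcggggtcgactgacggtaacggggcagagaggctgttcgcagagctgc

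No gene of the 20S core passed the test. The alpha subunits form the outer rings that gate entry to the barrel. All 6 measured had a positive difference, from 0.02 for PSMA7 to 0.16 for PSMA5, with a median of 0.05, and none passed the test (lowest adjusted p = 0.349, for PSMA3). In PSMA3 the log2 level was 13.26, 13.25 and 13.21 in the vehicle arrays and 13.32, 13.38 and 13.42 in the SAH-BCL9B arrays, the 1 alpha gene whose groups did not overlap. PSMA1 and PSMA4 differed by 0.07 and 0.02, and PSMA2 by 0.03.

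The beta subunits fill the inner rings. Of the 4 without a catalytic site, PSMB2 and PSMB3 differed by 0.09 and 0.10, and PSMB1 and PSMB4 by -0.01 and -0.04 (adjusted p = 0.545 to 0.964). The 3 catalytic subunits cut after different residues. PSMB5, which carries the chymotrypsin-like site that bortezomib blocks, had log2 levels of 12.45, 12.44 and 12.62 in vehicle and 12.46, 12.63 and 12.38 in SAH-BCL9B. Its groups overlapped fully, and the difference was -0.02 ± 0.10 (SE, limma adjusted p = 0.955, 95% interval -0.24 to 0.20). PSMB6, of the caspase-like site, differed by 0.06 and PSMB7, of the trypsin-like site, by 0.13 (adjusted p = 0.758 and 0.418). Of the 13 measured core genes, 3 had groups that did not overlap, all with SAH-BCL9B higher, or 23.1% against 16.3% of all genes; they were PSMA3, PSMB2 and PSMB7.

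In the cap all 14 measured genes had a positive difference, or 13 after a second quantile normalization. In 9 of the 14 measured 19S subunits the SAH-BCL9B arrays all lay above the vehicle arrays (64.3%, against 16.3% of all genes), and in none did they all lie below (12.0% of all genes). None of the 14 passed the threshold. At an unadjusted p of 0.05, 5 of 14 passed in limma's test (35.7%), as did 4236 of the 19775 genes (21.4%). With a variance trend and robust fitting, 4 of the 14 were called, PSMC4, PSMD1, PSMD3 and PSMD11. Under that fit 2456 of the 19775 genes were called, in either direction. Over 18 alternative fits, PSMC4, PSMD1 and PSMD11 each passed in 2 and PSMD3 in 1. No cap gene was called whichever array was left out.

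The ATPases PSMC1 to PSMC6 form the ring that pulls substrates into the core. The 5 measured differed by 0.09 to 0.22, with a median of 0.13. PSMC4 had the largest difference, with log2 levels of 11.44, 11.49 and 11.50 in vehicle and 11.69, 11.75 and 11.65 in SAH-BCL9B. Every treated array stood above every vehicle array, and the difference was 0.22 ± 0.07 (SE, limma adjusted p = 0.12). PSMC2, at 0.13, also had groups that did not overlap, whereas PSMC1, PSMC3 and PSMC6 overlapped. PSMC4, PSMD1, PSMD2, PSMD3 and PSMD11 are described in full here because of the values they showed.

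The base of the cap also holds the scaffold subunits PSMD1 and PSMD2 and the ubiquitin receptor PSMD4. PSMD1 had log2 levels of 12.40, 12.40 and 12.41 in vehicle and 12.62, 12.86 and 12.59 in SAH-BCL9B. Vehicle arrays were nearly identical, and SAH-BCL9B 2 stood above the other treated arrays. The difference was 0.29 ± 0.09 (SE, limma adjusted p = 0.115). The dimmer probe set of PSMD1, with a mean log2 level of 11.87, differed by 0.14. It was not called when every probe set was tested by itself (adjusted p = 0.719). PSMD2 had levels of 12.00, 12.01 and 12.02 in vehicle and 12.20, 12.28 and 12.12 in SAH-BCL9B, again without overlap, for a difference of 0.19 ± 0.08 (adjusted p = 0.2). In PSMD4 the levels were 12.19, 12.17 and 12.27 against 12.26, 12.55 and 12.27. Only SAH-BCL9B 2 stood clear of vehicle in that gene, and the difference was 0.15 ± 0.10 (adjusted p = 0.457).

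The lid removes ubiquitin chains before a substrate is unfolded. Its 6 measured subunits differed by 0.03 to 0.24, with a median of 0.14, and the groups did not overlap in 5 of them. PSMD11, a structural lid subunit known to promote cap assembly, had log2 levels of 11.78, 11.71 and 11.82 in vehicle and 12.07, 11.87 and 12.09 in SAH-BCL9B, a difference of 0.24 ± 0.09 (SE, limma adjusted p = 0.153). Here SAH-BCL9B 2 was the lowest of the treated arrays. PSMD3 had levels of 11.08, 11.16 and 11.23 against 11.35, 11.50 and 11.33, a difference of 0.24 ± 0.08 (adjusted p = 0.144). PSMD14, the deubiquitinase of the lid, had the smallest difference, 0.03 (adjusted p = 0.879), and its groups overlapped. PSMD6, PSMD8 and PSMD12 differed by 0.07, 0.14 and 0.15.

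SAH-BCL9B 2 stood apart in several respects. It was the highest of the 6 arrays in 22 of the 37 proteasome genes and in 9 of the 14 cap genes, and also in 33.5% of all genes. Its ACTB control had a 3′ minus 5′ log2 difference, a measure of RNA quality, of 0.735, against 1.20 to 1.38 in the other 5 arrays. Between the groups this measure gave p = 0.4 (exact two-sided permutation test), where 3 against 3 arrays can give no less than 0.1. That p-value does not test whether 1 array stands apart. Without that array all 14 cap genes kept a positive difference, with a median of 0.12, while the median of all genes became -0.01. The median was 0.07 over the 37 genes. Over the 13 core genes it was 0.03 with 11 positive without SAH-BCL9B 2, and 0.10 with 7 positive without SAH-BCL9B 1. With the ACTB difference of each array as a covariate, a choice made after seeing the data, the cap median was 0.12, again with 14 of 14 positive.

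Promoter windows were searched because NFE2L1 and NFE2L2, with small MAF partners, are known to act on proteasome genes through the antioxidant response element. RefSeq windows were matched for 37 of the 42 genes, 44 windows in all; PSMA7, PSMB1, PSMB6, PSMB7 and PSMD4 had no entry. The core of that element, TGACNNNGC on either strand, was found in 13 of the 44 windows (29.6%), against 13.4% of all 35116 windows. It occurred in 5 of 18 windows of cap genes (27.8%) and in 2 of 14 of the constitutive core (14.3%). The letters can overlap an AP-1 site. The cap genes with a match were PSMC4, PSMC5, PSMD1, PSMD3 and PSMD12. PSMC5 was not analysed here. In the other 4 the groups did not overlap, with SAH-BCL9B higher, which held for 16.3% of all genes. PSMC2, PSMD2, PSMD6, PSMD8 and PSMD11, in which the groups also did not overlap, had no match. PSMC1, PSMC3, PSMC6 and PSMD14, in which they overlapped, had none either. Among measured genes with a match outside the cap, the groups overlapped in PSMA4, PSMB3, PSMB9, PSMD5 and PSME1. They did not overlap in PSMD9 and PSME4. Whether a match goes with a difference was not tested. The CCAAT box (CCAAT, either strand) was in 18 of 44 windows (40.9%, against 34.6% of all). The heat shock element core (GAANNTTC, which reads alike on both strands) was in none of the 44 windows, against 6.77% of all. These are letter matches in a window of fixed length and say nothing of binding.

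The windows of the cap genes PSMD1, chr2:231056617-231056916 (+ strand), and PSMD3, chr17:39980557-39980856 (+ strand), both in GRCh38.p14, are shown with the TGACNNNGC matches in capitals. They were chosen as 2 of the larger differences with a match. In PSMD1 the match lies 40 to 48 bases after the start. PSMD3 has a pair of matches, from -37 to -29 and from 34 to 42, counted from the start.

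PSMD1: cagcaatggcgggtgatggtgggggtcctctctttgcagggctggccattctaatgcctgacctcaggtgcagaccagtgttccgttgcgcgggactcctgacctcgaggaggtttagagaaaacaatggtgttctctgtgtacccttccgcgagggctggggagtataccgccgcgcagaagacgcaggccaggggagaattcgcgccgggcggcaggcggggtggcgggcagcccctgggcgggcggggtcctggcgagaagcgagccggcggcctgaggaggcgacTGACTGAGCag

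PSMD3: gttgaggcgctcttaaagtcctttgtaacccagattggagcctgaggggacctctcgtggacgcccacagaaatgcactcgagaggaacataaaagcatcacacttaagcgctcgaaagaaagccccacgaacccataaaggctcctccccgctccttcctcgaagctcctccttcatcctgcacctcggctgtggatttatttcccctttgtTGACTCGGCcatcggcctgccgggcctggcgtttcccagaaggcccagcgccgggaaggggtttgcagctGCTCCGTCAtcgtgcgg

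NFE2L1 did not pass the test. It had log2 levels of 11.30, 11.33 and 11.33 in vehicle and 11.19, 11.23 and 11.23 in SAH-BCL9B, a difference of -0.10 ± 0.07 (SE, limma adjusted p = 0.48), with all treated arrays below all vehicle arrays. NFE2L1 is known to be controlled through processing of its protein, which an array does not measure. In the list of 9 measured genes for NFE2L1, its activation and its partners, 1 rose and none fell, or 11.1% against 3.49% of all genes, with a median of 0.15. Positive differences made up 5 of the 9 (55.6%), close to the 55.1% of all genes. The gene that rose was MAFG, a small MAF partner, from 10.02 ± 0.03 to 10.55 ± 0.03 (SD, n = 3), or 0.53 ± 0.07 (SE, adjusted p = 0.0068). MAFG was called whichever array was left out. NFE2L3, a relative of NFE2L1 named after its values were seen, differed by -0.47 ± 0.17 and did not pass (adjusted p = 0.148), and its groups overlapped.

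None of the other factors that help build or dock the complex passed the test. The 3 cap assembly chaperones differed by 0.14 for PSMD10 (gankyrin), 0.06 for PSMD9 and -0.04 for PSMD5. PSMD9 had levels of 11.85, 11.84 and 11.78 in vehicle and 11.89, 11.87 and 11.89 in SAH-BCL9B, close together though not overlapping (adjusted p = 0.729). Of 15 further assembly and proteasome-associated genes none passed in limma's test, 4 had an unadjusted p under 0.05 (26.7%, against 21.4% of all genes), and the median was 0.06. The core assembly chaperones PSMG1, PSMG2, PSMG3 and PSMG4, which act beside POMP, differed by -0.04, -0.09, -0.07 and -0.20. All were negative, while 55.1% of all genes were positive. In PSMG3 and PSMG4 all treated arrays lay below all vehicle arrays, as in 12.0% of all genes. A dimmer probe set of PSMG4 differed by -0.52 and was called when every probe set was tested by itself (limma adjusted p = 0.0413). Of the 5 probe sets of PSMG4, 1 had the opposite sign. The cap subunits SEM1 and ADRM1, the latter a ubiquitin receptor, differed by 0.25 ± 0.07 and 0.27 ± 0.08 (SE), each without overlap, and did not pass (adjusted p = 0.0885 and 0.0992).

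The alternative activators cap the barrel without ubiquitin receptors. PSME1, a subunit of an interferon-induced ring, had levels of 12.93, 12.93 and 12.96 in vehicle and 12.87, 13.01 and 12.88 in SAH-BCL9B, a difference of -0.02 ± 0.08 (SE, limma adjusted p = 0.941). PSME3, the nuclear relative, had 10.35, 10.34 and 10.33 against 10.21, 10.45 and 10.32, or -0.01 ± 0.08 (adjusted p = 0.964). PSME1 and PSME3 both overlapped between the groups. Of the 4 probe sets of PSME3, 2 had the opposite sign. The second brightest, at a mean log2 level of 10.07 against 10.33, differed by 0.34. It was not called when every probe set was tested by itself (limma adjusted p = 0.222). PSME4, a large single-chain activator, had 11.77, 11.74 and 11.67 against 12.00, 11.97 and 11.83, a difference of 0.21 ± 0.08 without overlap, which did not pass (adjusted p = 0.183).

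Of the 3 immunoproteasome subunits none passed the test, and 2 had a negative difference. PSMB8, which replaces PSMB5, had log2 levels of 10.68, 10.59 and 10.58 in vehicle and 10.46, 10.51 and 10.31 in SAH-BCL9B. All treated arrays lay below all vehicle arrays, and the difference was -0.19 ± 0.08 (SE, limma adjusted p = 0.24). PSMB10, which replaces PSMB7, had 9.21, 9.20 and 9.13 against 9.08, 9.10 and 9.09, also without overlap, a difference of -0.09 ± 0.07 (adjusted p = 0.552). PSMB9, which replaces PSMB6, had 9.61, 9.62 and 9.67 against 9.59, 9.72 and 9.66, a difference of 0.02 ± 0.07 with overlapping groups (adjusted p = 0.923). None of the 3 passed, at an adjusted or an unadjusted p of 0.05. PSMB8 and PSMB10 were the 2 proteasome genes of 37 whose treated arrays all lay lower (5.41%, against 12.0% of all genes).

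Other genes of class I antigen processing included some that rose. Of 13 measured, 3 rose and none fell, or 23.1% against 3.49% of all genes, and 11 differences were positive (84.6%, against 55.1%), with a median of 0.16. The pair of negative differences were in ERAP1, which trims peptides for class I molecules, and TAP2, the partner of TAP1. ERAP1 differed by -0.39 ± 0.10 (SE, limma adjusted p = 0.0581), with all treated arrays below all vehicle arrays, and TAP2 by -0.16 ± 0.10 with overlapping groups (0.429). These directions depend on the probe set. Of 5 probe sets of ERAP1 and 4 of TAP2, 2 in each gene had the opposite sign. The second brightest differed by -0.09 in ERAP1 and by 0.14 in TAP2. Both genes were named after their values were seen, and whether this list differed from the immunoproteasome subunits was not tested. TAP1, a subunit of the peptide transporter that feeds class I molecules, rose from 10.08 ± 0.01 to 10.52 ± 0.10 (SD, n = 3), or 0.44 ± 0.08 (SE, limma adjusted p = 0.018). NLRC5, the class I transactivator, and the interferon response factor IRF1 rose by 0.53 ± 0.12 and 0.42 ± 0.10 (adjusted p = 0.034 and 0.041). NLRC5 lies below the median of all probe sets in vehicle (6.24 against 6.61), so its size is uncertain. TAP1 was no longer called when any vehicle array or SAH-BCL9B 1 was left out (up to 0.0898). IRF1 was not called whichever array was left out (up to 0.155). NLRC5 was not called when any array other than SAH-BCL9B 2 was left out (up to 0.118).

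TAP1 and PSMB9 are neighbours that face away from each other and are known to share a promoter region. In RefSeq on GRCh38.p14 their starts lie 488 bases apart on chromosome 6, TAP1 on the - strand and PSMB9 on the + strand, and the windows share 13 bases. The difference of TAP1 exceeded that of PSMB9 by 0.42 on the log2 scale (exact two-sided permutation test, p = 0.1). That is the smallest p that 3 against 3 arrays can give. The pair was chosen after its values were seen, so this p-value adds no support. The windows chr6:32853655-32853954 (- strand) and chr6:32853942-32854241 (+ strand) are shown because the pair was chosen. The window of PSMB10, chr16:67936801-67937100 (- strand), is shown as that of the immunoproteasome gene with a match in its 1 window. Capitals mark a site for interferon response factors, GAAA followed after 2 bases of any kind by a further GAAA on either strand, or, in PSMB9, the TGACNNNGC core. The interferon site was in 6 of the 44 proteasome windows (13.6%), against 3.57% of all windows. They belonged to PSMA4, PSMB4, PSMB8, PSMB10, PSME1 and PSME2. In TAP1 a pair of overlapping matches spans -134 to -119, and in PSMB10 the match spans -21 to -12. The TAP1 stretch lies between the starts of TAP1 and PSMB9 but outside the PSMB9 window. The lack of an interferon site in the PSMB9 window therefore does not cover the whole region between the starts.

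TAP1: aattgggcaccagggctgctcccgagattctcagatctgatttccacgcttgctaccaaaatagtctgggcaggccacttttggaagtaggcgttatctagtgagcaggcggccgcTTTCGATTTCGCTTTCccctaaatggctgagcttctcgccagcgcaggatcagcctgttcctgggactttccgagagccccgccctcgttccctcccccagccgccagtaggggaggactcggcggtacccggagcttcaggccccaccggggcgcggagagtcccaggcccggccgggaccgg

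PSMB9: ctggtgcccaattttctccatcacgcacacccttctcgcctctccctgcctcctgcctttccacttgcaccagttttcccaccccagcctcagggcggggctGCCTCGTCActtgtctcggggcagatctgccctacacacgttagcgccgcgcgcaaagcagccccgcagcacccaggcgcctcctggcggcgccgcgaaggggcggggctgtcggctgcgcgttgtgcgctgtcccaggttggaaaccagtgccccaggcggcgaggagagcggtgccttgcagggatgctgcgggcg

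PSMB10: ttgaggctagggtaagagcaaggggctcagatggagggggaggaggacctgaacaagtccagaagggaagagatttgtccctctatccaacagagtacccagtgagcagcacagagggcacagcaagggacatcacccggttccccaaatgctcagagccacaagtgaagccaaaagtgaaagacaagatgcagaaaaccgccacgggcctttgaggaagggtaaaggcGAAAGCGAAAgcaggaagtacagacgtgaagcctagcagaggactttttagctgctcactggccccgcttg

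**Figure D2:**
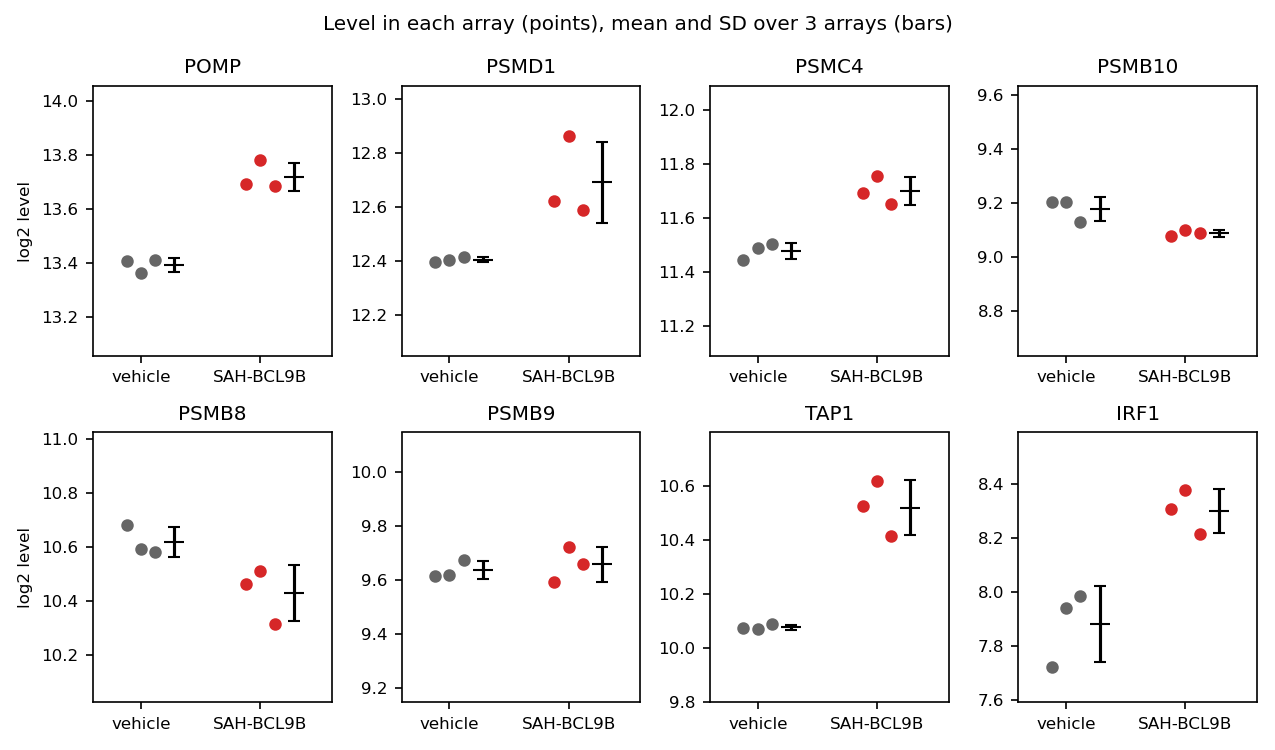
Log2 level in each array for 6 proteasome genes, TAP1 and IRF1, with points in replicate order, 3 per group, and bars for the mean and SD; every panel spans 1 log2 unit. POMP, PSMD1, PSMC4, TAP1 and IRF1 are higher and PSMB8 and PSMB10 lower in every treated array, and PSMB9 overlaps.

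Of 15 measured genes for ubiquitin, shuttle factors and the p97 unfoldase, which deliver substrates to the proteasome, 2 rose, none fell and 13 did not pass. The share that rose was 13.3%, against 3.49% of all genes. The median was 0.16, and 14 differences were positive (93.3%, against 55.1% of all genes). The ubiquitin-binding autophagy receptor gene SQSTM1 rose by 0.91 ± 0.07 (SE, limma adjusted p = 0.001) and the cochaperone gene BAG3 by 0.37 ± 0.08 (0.0354). BAG3 was not called whichever array was left out. Of the 5 probe sets of SQSTM1, 2 had the opposite sign, at -0.15 and -0.48. With every probe set tested by itself, neither was called (limma adjusted p = 0.601 and 0.162). The second brightest differed by 1.40 and was called (0.00106). The difference of SQSTM1 was 0.46 with averaged probe sets (0.0254). SQSTM1 was not called when a probe set with no s or x suffix was preferred (0.61, adjusted p = 0.168). VCP, which encodes p97, differed by 0.25 ± 0.07 without overlap and did not pass (0.0878). The polyubiquitin gene UBB differed by 0.06 (0.696).

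Probe sets of the same gene did not always tell the same story. The 37 genes had 70 probe sets that named them alone, and 21 genes had more than 1. Among the 33 probe sets not used, 17 differences were positive and 16 negative, with a median of 0.004 and a range from -0.74 to 0.60. In 12 of the 21 genes at least 1 probe set had the opposite sign, among them the cap genes PSMC2, PSMD11 and PSMD12. The widest split was in PSMA5. Its probe set in use differed by 0.16, while a dim one with a mean log2 level of 5.81, below the median of 6.61 of all probe sets, differed by -0.74 (limma adjusted p = 0.0217 over every probe set tested by itself). In PSMC2 the dimmer probe sets differed by -0.50 and -0.30, and in PSME4 one differed by -0.40, none of them past the threshold. When each gene was read as its probe sets' mean, 12 of 14 cap genes, 7 of 13 core genes and 23 of the 37 were positive, and POMP was no longer called (adjusted p = 0.151). Which transcript each probe set reads was not tested. Of the 37 probe sets in use, 13 carry the suffix s and 4 the suffix x, Affymetrix marks for probes shared between transcripts or with related sequences, such as pseudogenes.

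**Figure D3:**
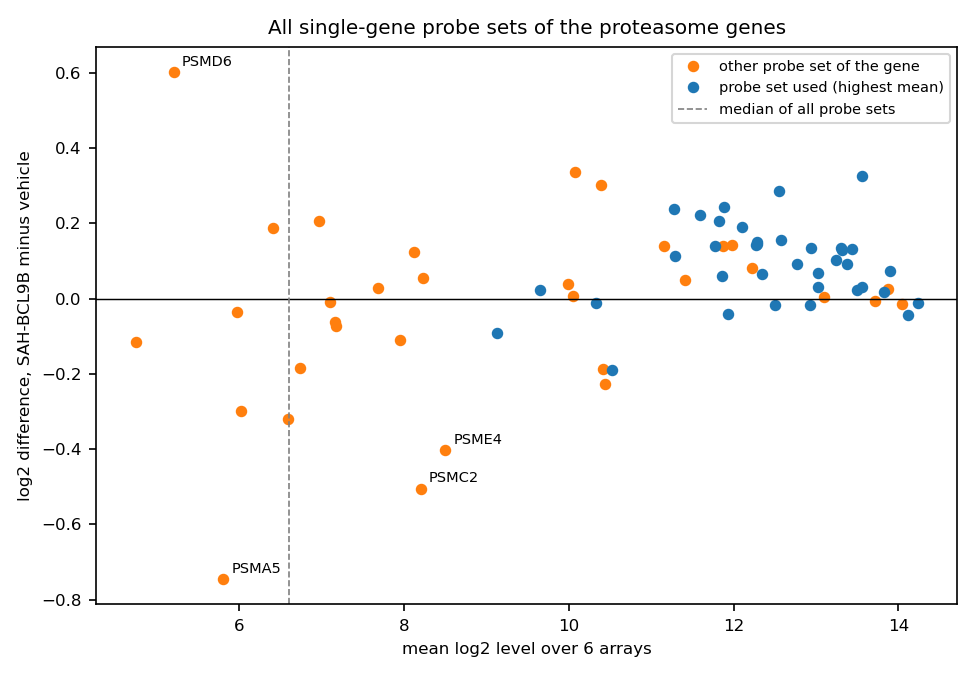
Log2 difference (SAH-BCL9B minus vehicle) against mean log2 level for the 70 single-gene probe sets of 37 proteasome genes; the dashed line is the median of all probe sets, 6.61. The probe sets in use (blue) lie between -0.19 and 0.33, and the dimmer ones (orange) spread from -0.74 to 0.60.

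Array medians, which RMA brings together, lay between 6.58 and 6.62. All 8 colon epithelial markers were measured, with vehicle means from 9.02 for VIL1 to 14.90 for KRT18, of which KRT8 rose by 0.50 and VIL1 fell by 0.86 (limma adjusted p = 0.0113 and 0.00303). KRT8 was not called without vehicle 1 (0.0527), and the difference of VIL1 was -0.40 with averaged probe sets (0.0189). The 8 measured markers of immune, endothelial and stromal cells ran from 4.28 for PTPRC to 8.55 for COL1A1, and none passed (0 at an unadjusted p of 0.05). Their summed log2 level was 52.6 to 53.5 in vehicle and 52.8 to 54.1 in SAH-BCL9B.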

How the data were processed

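The values are the authors' deposited log2 expression levels for 54675 probe sets on 6 arrays. RMA and affy appear in the submitters' processing notes, with versions not given in the sources used here. Normalization by RMA works between arrays, which hides any shift common to most genes, and it shrinks changes of dim probe sets. No detection calls were used. Names came from GEO's platform annotation, checked by Entrez ID against RefSeq (GRCh38.p14): 41091 named 1 gene, 1801 several, 11721 none, and 62 were controls.

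Groups were compared with limma 3.58.1 in R 4.3.3 (SAH-BCL9B minus vehicle, no covariates or filter), with Benjamini-Hochberg adjustment over 19775 genes. Errors are moderated standard errors or SDs over 3 arrays. The procedure was run on simulated data with independent noise in each gene and array. The differences added there were larger than those of the proteasome genes, and no array stood apart. That run therefore cannot say how well differences of the size reported here are found. Alternatives are listed in the closing section.

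The genes, lists and tests were chosen with earlier results of these data known. Named in full were the genes past the threshold and 11 proteasome genes whatever their result (PSME2 not analysed here), besides those said to be chosen by value. In other lists up to 4 genes past the threshold in each direction were named, and NFE2L1. ERAP1, TAP2, NFE2L3, PSMG1 to PSMG4, SEM1, ADRM1, VCP and UBB, none past the threshold with the probe set in use, were named after their values were seen. The covariates and the fit without vehicle 3 and SAH-BCL9B 2 were added after seeing the data.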

Additional observations from a re-analysis of the deposited data

How the results depend on the processing

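Alternatives were the replicate block, a filter on low values, other uses of several probe sets, scaling, the variance model, array weights and each array left out; covariates and a fit without the arrays vehicle 3 and SAH-BCL9B 2 were added after seeing the data. POMP was the 1 proteasome gene that rose. That number was 0 with the replicate block, averaged probe sets, probe sets tested singly, probe sets with no s or x suffix preferred, the ACTB covariate, or both named arrays left out, and 0 whichever array was left out. It was 2 with the filter, array weights or the array SD covariate, and 5 with a variance trend and robust fit. The number that fell was 0, except 1 with probe sets tested singly (PSMA5). Over all genes 1370 passed, against 296 with the replicate block, 2271 with the filter, 2456 with the trend, 2172 with array weights, 2441 with the array SD covariate, and 316 to 1426 with 1 array left out. All 14 cap genes were positive, except 12 of 14 with averaged probe sets or the suffix preference and 13 after a second quantile normalization. Medians that moved by more than the replicate spread follow. With averaged probe sets the 37 genes gave 0.034, the beta subunits without a catalytic site -0.0073, the lid 0.114 and the cap chaperones -0.078. With the suffix preference those beta subunits gave 0.0090 and the lid 0.105. After a second quantile normalization those beta subunits gave 0.012 and the ATPases 0.098. With the ACTB covariate those beta subunits gave 0.015, the lid 0.098 and the activators -0.066. With both named arrays left out, the 37 genes gave 0.058. With 1 array left out, the lid ran from 0.102 to 0.182, the activators from -0.064 to 0.044, the constitutive core from 0.033 to 0.103 (7 to 11 of 13 positive) and the alpha ring from 0.047 to 0.080. Deviations from the group means of same-numbered arrays correlated at 0.24, -0.20 and -0.32, and not every array correlated best with its own number. The highest correlation, 0.42, was between vehicle 3 and SAH-BCL9B 2. Deviations within a group of 3 depend on each other, so these values cannot settle whether the replicate numbers pair the arrays. Of the other genes named as called, MAFG, TAP1, IRF1, NLRC5, BAG3 and KRT8 also missed the threshold with the block, SQSTM1 with the suffix preference, IRF1 with averaged probe sets, IRF1, NLRC5 and BAG3 with probe sets tested singly, IRF1 and NLRC5 with the ACTB covariate, and IRF1 and BAG3 with both named arrays left out. The cause was not tested. Signal over background is unknown, which limits what dim probe sets show.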
